A study of Homo sapiens with 6 samples.

Results

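The nuclear genes of the mitochondrial respiratory chain were followed across 6 expression arrays of VCaP cells in which the arginine methyltransferase PRMT5 was knocked down. A gene was included when its single symbol in the platform annotation matched the naming pattern of a structural subunit: NDUFA, NDUFB, NDUFC, NDUFS or NDUFV with a number, UQCR, SDHA to SDHD, COX4 to COX8 isoforms, or ATP5. The pattern matched 76 of the 19775 genes that had a probe set with 1 symbol, and each gene was represented by its brightest such probe set. It also took in ATP5IF1, which is an inhibitor of the ATP synthase rather than a subunit, and ATP5MC2P1, which is a pseudogene.

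VCaP cells are a long-established prostate cancer line of human origin with a fusion of TMPRSS2 and ERG. Cells held 1 of 3 short hairpin RNAs (shRNAs): a non-targeting control (NTC), PRMT5 shRNA 1 or PRMT5 shRNA 2, with 2 arrays per group. All 6 samples, NTC included, received doxycycline at 100 ng/ml for 3 days, so each comparison is between hairpins within treated cells. Nothing in the labels tells if replicates came from separate cultures, so a p-value reflects only the spread among these arrays, and that spread may be technical. Both knockdown groups were compared with the same NTC arrays. In bulk RNA, fewer cells of a kind and less RNA per cell cannot be told apart.

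The respiratory chain sits in the inner mitochondrial membrane. Complex I (NADH dehydrogenase) and complex II (succinate dehydrogenase) pass electrons to ubiquinone, complex III (the cytochrome bc1 complex) passes them to cytochrome c, and complex IV (cytochrome c oxidase) passes them to oxygen. Complexes I, III and IV pump protons, and complex V (the ATP synthase) uses the resulting gradient to make ATP. Most subunits are encoded in the nucleus, and their genes are known targets of NRF1, of the ETS factor GABP and, through the coactivators of the PGC-1 family, of estrogen-related receptors. The core subunits carry the redox centres or the catalytic sites (in complex IV these are made in the mitochondrion itself), and many small supernumerary (accessory) subunits surround them.

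PRMT5 itself read 809.8 and 881 in the NTC arrays, 136 and 134 with PRMT5 shRNA 1, and 291 and 321 with PRMT5 shRNA 2, or 15.9% and 36.2% of the NTC mean. Of the VCaP markers looked up, all 10 on the list that were found lay above the filter on dim probe sets described next, at intensities of 222 to 5438. Of the 8 fibroblast and endothelial markers found, only COL1A1 passed that filter, and PTPRC and CD3E, which mark leukocytes, read 0.1 to 4.2 in all arrays. LYZ, another immune marker, stood at 454% of the NTC mean with PRMT5 shRNA 1 and 251% with PRMT5 shRNA 2, and the summed immune list was 35.5 and 28.1 in NTC, 128 and 132 with PRMT5 shRNA 1, and 78.7 and 70.7 with PRMT5 shRNA 2. The basal epithelial markers KRT5 and KRT14 summed to 38.3 and 51.7, 30.7 and 27.9, and 43.9 and 54.4 in the 3 groups. The ratio of the 3′ to the 5′ control probe sets of ACTB, a sign of RNA quality, was 4.58 and 4.88 in NTC, 3.49 and 3.88 with PRMT5 shRNA 1 and 5.72 and 5.0 with PRMT5 shRNA 2. The same ratio for GAPDH was 1.26 and 1.33, 1.21 and 1.23, and 1.23 and 1.22. The part of these differences in the results below was not tested.

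A probe set was kept when 2 or more of the 6 arrays gave it at least their own median, and those medians lay between 14.8 and 16.4 intensity units. This kept 69 of the 76 genes: all 32 of complex I, all 3 of complex II, all 6 of complex III, 10 of 16 of complex IV and 18 of 19 of complex V. The 7 genes below it were ATP5MC2P1 and 6 tissue-restricted isoforms of complex IV, namely COX4I2, COX6A2, COX6B2, COX7A1, COX7B2 and COX8C. For those 6 isoforms the common counterpart (COX4I1, COX6A1, COX6B1, COX7A2, COX7B and COX8A) was kept. COX4I2, the lung and hypoxia-linked form of subunit 4, read 9.5 and 11.1 in NTC, 3.4 and 2.0 with PRMT5 shRNA 1 and 2.6 and 4.5 with PRMT5 shRNA 2, all under the array medians. The other 6 read 0.2 to 12.8. Some other subunits were not analysed here.

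Promoter sequence was read from RefSeq (GRCh38.p14) for the genes whose symbol matched, 60 of the 69 kept genes with 72 windows, each from 250 bases before to 50 bases after the start. The core of the NRF1 site, GCATGCGC, was found on either strand in 13 of the 60 genes (21.7%), against 3.68% of 27305 genes. The ETS core that GABP recognises, CCGGAAG, was found in 19 (31.7%, against 12.2%) and the YY1 core, AAGATGGC, in 11 (18.3%, against 3.52%). The SP1 core, GGGCGG, was found in 40 (66.7%, against 48.3%) and the CCAAT box in 20 (33.3%, against 39.7%). The 27305 genes were not limited to the genes tested on the arrays, nor matched for base composition. The part of this in the shares was not tested. Among the 14 matched genes that PRMT5 shRNA 1 changed (below), 3 held the NRF1 core, 5 the ETS core, 1 the YY1 core, 7 the SP1 core and 5 the CCAAT box. The 110 bases just before the start are shown for NDUFB7 and NDUFA13, the members that rose most with PRMT5 shRNA 1, for SDHD, whose window held both the NRF1 and the ETS core, and for UQCRC2, which fell and whose window held neither. They lie at chr19:14572067-14572176 (minus strand), chr19:19516115-19516224 (plus), chr11:112086763-112086872 (plus) and chr16:21953251-21953360 (plus), in that order. Each reads 5′ to 3′ along the gene, and capitals mark the NRF1 and ETS cores on either strand.
NDUFB7: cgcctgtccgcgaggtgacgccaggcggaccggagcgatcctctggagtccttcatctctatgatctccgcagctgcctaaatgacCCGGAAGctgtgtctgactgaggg
NDUFA13: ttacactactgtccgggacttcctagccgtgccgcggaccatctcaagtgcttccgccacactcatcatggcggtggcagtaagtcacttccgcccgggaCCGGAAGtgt
SDHD: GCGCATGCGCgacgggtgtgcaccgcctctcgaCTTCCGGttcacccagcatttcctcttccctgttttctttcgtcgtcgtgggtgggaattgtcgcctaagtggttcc
UQCRC2: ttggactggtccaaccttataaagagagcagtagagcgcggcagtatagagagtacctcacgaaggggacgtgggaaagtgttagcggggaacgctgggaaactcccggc
The ETS core of NDUFA13 starts 10 bases before the start of transcription and that of NDUFB7 24 bases before it. In SDHD the NRF1 core was matched 2 times, once on each strand, in overlapping letters. A match is a description of these letters and was not set against binding.

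Across the family the differences were small. On the log2(intensity + 16) scale, the mean of both knockdowns minus NTC ran from −0.32 (ATP5MF) to 0.30 (NDUFB7), and the median size of the difference was 0.07, against 0.14 over all 12413 genes tested. With limma and a Benjamini-Hochberg adjusted p under 0.05 as the call, 8 of the 69 subunit genes changed (11.6%), where 32.4% of all genes did. Of these, 5 rose, against a background of 15.4% of all genes, and 3 fell, against 17%. At an unadjusted p under 0.05 the count was 15. The count of calls was 1 without NTC replicate 1, without NTC replicate 2 or without PRMT5 shRNA 1 replicate 2, and 4 without PRMT5 shRNA 1 replicate 1. Without the probe sets ending in _s_at or _x_at, which can match more than 1 transcript or gene, 0 of 53 subunits rose and 4 fell, and 27 lay above 0. The median standard error (SE) was 0.06 for the subunits and 0.08 over all genes. The subunits were brighter than most genes, with a median intensity of 1351 against 251 over all genes tested. The comparisons with all genes given here were not matched for intensity, and the part of intensity in them was not tested. For 52 of the 69 genes the 95% interval of the difference lay wholly within a 1.2-fold change in either direction, and for 67 within 0.5 on the log2 scale. The median difference of the subunits was 0.04 and that of all genes −0.01, and 51 of the 69 subunits lay above 0. All 4 knockdown arrays stood above both NTC arrays for 6 subunits (NDUFB6, NDUFB11, NDUFC1, UQCRB, UQCRQ and ATP5PB), against 18.7% of all genes. They stood below both for 5 (NDUFS1, SDHA, UQCRC2, ATP5F1B and ATP5MF), against 20.5%.

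The hairpins differed. PRMT5 shRNA 1 changed 15 subunits, of which 13 rose and 2 fell, where 39.3% of all genes were called, 16.2% higher and 23.1% lower. At an unadjusted p under 0.05 the count was 26. Leaving out NTC replicate 1 or 2 gave 6 or 9 calls, leaving out PRMT5 shRNA 1 replicate 1 or 2 gave 9 or 4, and leaving out PRMT5 shRNA 2 replicate 1 or 2 gave 25 or 26. The median over the subunits was 0.11, against −0.04 over all genes, and 57 of 69 lay above 0. With PRMT5 shRNA 2 the number of subunits called by limma was 0, at a background of 21.4% (13.1% higher and 8.39% lower), and 2 had an unadjusted p under 0.05. Their median difference was −0.00, but it was 0.07 in replicate 1 and −0.09 in replicate 2 of that hairpin. Of the 69 intervals, 54 lay within a 1.2-fold change. Those intervals rest on a spread pooled over the groups. The median replicate SD of a subunit was 0.11 in PRMT5 shRNA 2 and 0.04 in each of the other groups. In the direct contrast of PRMT5 shRNA 2 with PRMT5 shRNA 1, 11 subunits were lower and 0 higher, where 25.7% of all genes were called, 18.3% higher and 7.38% lower. The median of that difference was −0.11 for the subunits and 0.06 for all genes. The NTC arrays do not enter the difference itself, so leaving either of them out cannot move that median. They bear on the calls through the pooled spread. The median was −0.12 and −0.10 without PRMT5 shRNA 1 replicate 1 and 2. Without PRMT5 shRNA 2 replicate 1 and 2 it was −0.17 and −0.04. The count of 11 became 5 without either NTC array, and 2 or 1 without PRMT5 shRNA 1 replicate 1 or 2.

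The split of these calls moved with the scaling of the arrays. When each array was centred on the median of the tested genes, PRMT5 shRNA 1 raised 24 subunits and lowered 0, and 30 were lower with PRMT5 shRNA 2 than with PRMT5 shRNA 1. In the averaged contrast 8 then rose and 0 fell, so that the falls of SDHA, UQCRC2 and ATP5MF were no longer called there. With PRMT5 shRNA 1 the calls of SDHA and UQCRC2 were lost as well. Over all genes, the same centring gave 2708 higher calls of 4719 with PRMT5 shRNA 1 in place of 2008 of 4879. Between the hairpins it gave 1173 higher of 2958 in place of 2276 of 3192, and in the averaged contrast 2173 of 3884 in place of 1910 of 4016. With quantile normalisation PRMT5 shRNA 1 raised 12 subunits and lowered 3, the averaged contrast had 6 higher and 4 lower, and between the hairpins 7 were lower and 1 higher. The median over the subunits was then 0.06 with PRMT5 shRNA 1, and 47 of 69 lay above 0. In the averaged contrast it was 0.03, and 40 lay above 0.

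The 2 arrays of PRMT5 shRNA 2 disagreed on the family. The median subunit lay 0.07 above the NTC mean in replicate 1 and 0.09 below it in replicate 2 (a value of −0.09), whereas both arrays of PRMT5 shRNA 1 lay above it, at 0.10 and 0.11. In PRMT5 shRNA 2, 63 of the 69 subunits were lower in replicate 2 than in replicate 1, by a median of −0.15, while the median over all genes was 0.01 and 47.5% of them were lower. The median replicate SD of a subunit was 0.11 there, against 0.04 in each of the other groups. Without replicate 1 of PRMT5 shRNA 2, that hairpin lowered ATP5F1D, ATP5MC1 and ATP5ME, and 29 subunits were lower than with PRMT5 shRNA 1. Without replicate 2, it raised ATP5MC2, NDUFB11, NDUFV2 and UQCR10, and 3 subunits were lower than with PRMT5 shRNA 1. The averaged contrast then called 18 subunits, 15 of them higher.

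**Figure D1:**
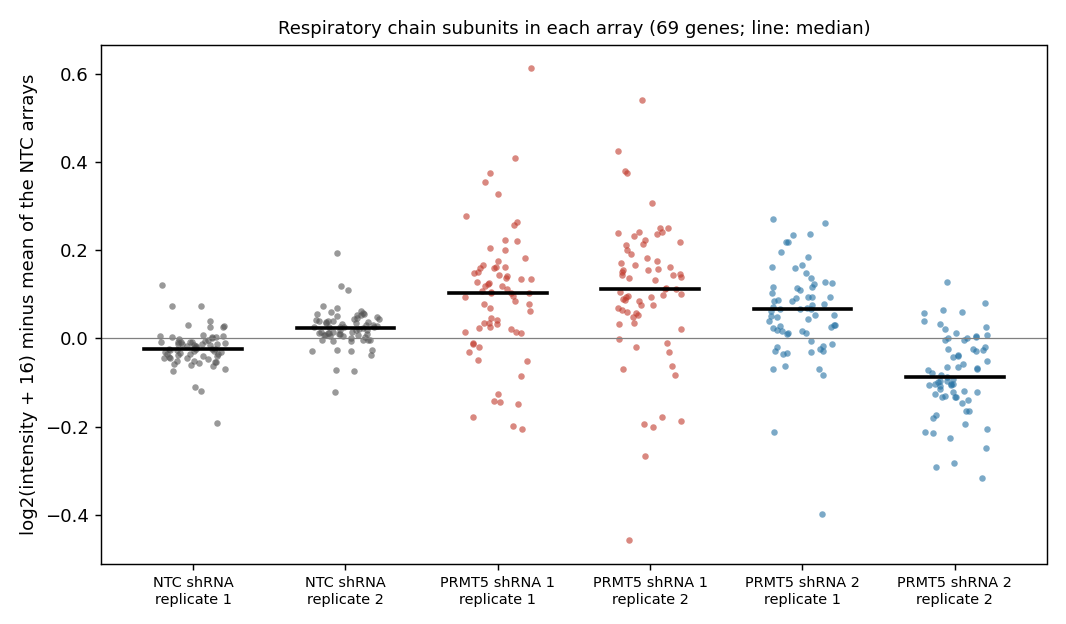
Each point is 1 of the 69 subunit genes in 1 array, as log2(intensity + 16) minus the mean of the NTC arrays for that gene, and the black lines are medians. Both PRMT5 shRNA 1 arrays centre at 0.10 and 0.11, whereas the PRMT5 shRNA 2 arrays centre at 0.07 and −0.09.

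In complex I, the NADH dehydrogenase, 3 of 32 subunits rose in the averaged contrast and 0 fell. With PRMT5 shRNA 1, 7 rose (NDUFA6, NDUFA13, NDUFB4, NDUFB6, NDUFB7, NDUFB11 and NDUFC1) and the median over the complex was 0.13. With PRMT5 shRNA 2 the median was 0.00.

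NDUFB6, a membrane-arm subunit (probe set 203613_s_at), read 557 and 537 in NTC, 703 and 714 with PRMT5 shRNA 1, and 562 and 599 with PRMT5 shRNA 2. All 4 knockdown arrays were above both NTC arrays, but only the PRMT5 shRNA 1 arrays stood clear of them. The gene rose by 0.22 ± 0.06 (log2, SE) in the averaged contrast (adjusted p = 0.011) and by 0.37 ± 0.07 with PRMT5 shRNA 1 (adjusted p = 0.0014). Its value with PRMT5 shRNA 2 was 0.08 ± 0.07 (adjusted p = 0.40).

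NDUFA13, also known as GRIM-19 and a partner of STAT3 (220864_s_at), read 549 and 650.4 in NTC, 799 and 808 with PRMT5 shRNA 1, and 655 and 609 with PRMT5 shRNA 2. The PRMT5 shRNA 1 arrays were the highest, and the PRMT5 shRNA 2 arrays overlapped with NTC. The gene rose by 0.42 ± 0.08 with PRMT5 shRNA 1 (adjusted p = 0.0025) and by 0.25 ± 0.07 in the averaged contrast (adjusted p = 0.021). The calls of NDUFA13 and NDUFB6 with PRMT5 shRNA 1 were kept in all 15 alternative analyses that could be run for each. The analysis without probe sets ending in _s_at or _x_at could not be run for them, as each had only 1 kept probe set, of the _s_at kind. Their averaged calls were kept in 12 and 13 of the 15. In the averaged contrast, NDUFA13 was no longer called without NTC replicate 1 or PRMT5 shRNA 1 replicate 2, and NDUFB6 without either NTC array.

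NDUFB7, a supernumerary subunit of the membrane arm (202839_s_at), had the largest rise of the 69 genes. It read 252 and 262 in NTC, 401 and 381 with PRMT5 shRNA 1, and 305 and 220.4 with PRMT5 shRNA 2, where the replicates fell on either side of NTC. The rise with PRMT5 shRNA 1 was 0.58 ± 0.12 (adjusted p = 0.0035), to 152% of the NTC mean. That call was lost (adjusted p = 0.14, 0.27 on the log2 scale) when the probe sets ending in _s_at or _x_at were left out. The averaged value of 0.30 ± 0.10 missed the threshold (adjusted p = 0.050).

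NDUFB11, an X-linked membrane-arm subunit, read 849 and 919 in NTC, 1059 and 1053 with PRMT5 shRNA 1, and 1069 and 921 with PRMT5 shRNA 2. Its lowest knockdown array, at 921, was just above its highest NTC array, at 919. It rose by 0.21 ± 0.07 in the averaged contrast (adjusted p = 0.032), a call that was lost when either NTC array, either PRMT5 shRNA 1 array or PRMT5 shRNA 2 replicate 1 was left out. That call of NDUFB11 was kept in 8 of 15 alternatives. Of the core subunits, NDUFS1, NDUFV1 and NDUFS7 showed no call against NTC. NDUFS1, which carries several iron-sulfur clusters, read 566 and 563 in NTC and 486 to 525 in the knockdown arrays, all below NTC, with a difference of −0.16 ± 0.06 (adjusted p = 0.053). NDUFV1, which binds NADH, differed by −0.10 ± 0.06 and NDUFS7, which carries the last cluster before ubiquinone, by 0.06 ± 0.11.

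Complex II, the succinate dehydrogenase shared with the citric acid cycle, had 3 measured subunits. SDHA, the flavoprotein that oxidises succinate (201093_x_at), read 1153 and 1218 in NTC, 1045 and 1039 with PRMT5 shRNA 1, and 1128 and 1049 with PRMT5 shRNA 2. All knockdown arrays were below NTC, and it fell by 0.15 ± 0.05 on the log2 scale in the averaged contrast (adjusted p = 0.047). The call was kept in 6 of 15 alternatives. This call was lost when any array other than PRMT5 shRNA 2 replicate 1 was left out. The membrane anchors were not called: SDHC differed by 0.01 ± 0.05 and SDHD by 0.01 ± 0.05. SDHD read 1336 and 1323 in NTC, 1444 and 1409.9 with PRMT5 shRNA 1, and 1254 and 1270.4 with PRMT5 shRNA 2, so that the hairpins lay on opposite sides of NTC. The difference between them was −0.17 ± 0.05 (adjusted p = 0.035), and it was no longer called when any 1 of the 6 arrays was left out.

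In complex III, with PRMT5 shRNA 1, the small subunits UQCR10, UQCR11, UQCRB and UQCRQ rose and the core protein UQCRC2 fell, which left UQCRC1 of the 6 without a call. UQCR10 (218190_s_at) read 752 and 805 in NTC, 1014 and 1017 with PRMT5 shRNA 1, and 936 and 765 with PRMT5 shRNA 2. It rose by 0.38 ± 0.09 with PRMT5 shRNA 1 (adjusted p = 0.0056) and by 0.25 ± 0.07 in the averaged contrast (adjusted p = 0.026). These calls were kept in 14 and 8 of 16 alternatives. The PRMT5 shRNA 1 arrays stood apart, while the PRMT5 shRNA 2 arrays were split by the NTC values. Its averaged call was lost without either NTC array, either PRMT5 shRNA 1 array or the _s_at and _x_at probe sets. Without those probe sets its call with PRMT5 shRNA 1 was lost as well, at 0.05 (adjusted p = 0.70).

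UQCRB, UQCR11 and UQCRQ rose with PRMT5 shRNA 1 by 0.20 ± 0.06, 0.22 ± 0.07 and 0.18 ± 0.06 (adjusted p = 0.016, 0.026 and 0.038). These calls were kept in 11, 9 and 8 of 16 alternatives. That of UQCRB was lost without either NTC array or PRMT5 shRNA 1 replicate 2, and that of UQCRQ without any 1 of the NTC or PRMT5 shRNA 1 arrays. That of UQCR11 was lost without NTC replicate 1, either PRMT5 shRNA 1 array or the _s_at and _x_at probe sets. The other kept probe sets of UQCRB differed by 0.17, 0.13 and −0.68 in the averaged contrast. With the mean over its probe sets, the PRMT5 shRNA 1 value of UQCRB was −0.02. UQCRC2, a core protein related to the mitochondrial processing peptidases (212600_s_at), read 1651 and 1682 in NTC, 1449 and 1383 with PRMT5 shRNA 1, and 1596 and 1504 with PRMT5 shRNA 2. Every knockdown array was below NTC, and PRMT5 shRNA 1 the lower of the hairpins. UQCRC2 fell by 0.17 ± 0.05 on the log2 scale in the averaged contrast (adjusted p = 0.023) and by 0.23 ± 0.06 with PRMT5 shRNA 1 (adjusted p = 0.0079). These calls were kept in 10 and 12 of 16 alternatives. The other kept probe sets of UQCRC2 differed by −0.19 and 0.07 in the averaged contrast. Its value with PRMT5 shRNA 1 ranged from −0.27 to −0.06 over the alternatives. The averaged call was lost without either NTC array or PRMT5 shRNA 1 replicate 2. Its partner UQCRC1 read 346 and 376 in NTC and 310.3 to 365 in the knockdown arrays, with a difference of −0.11 ± 0.08 (adjusted p = 0.29).

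**Figure D2:**
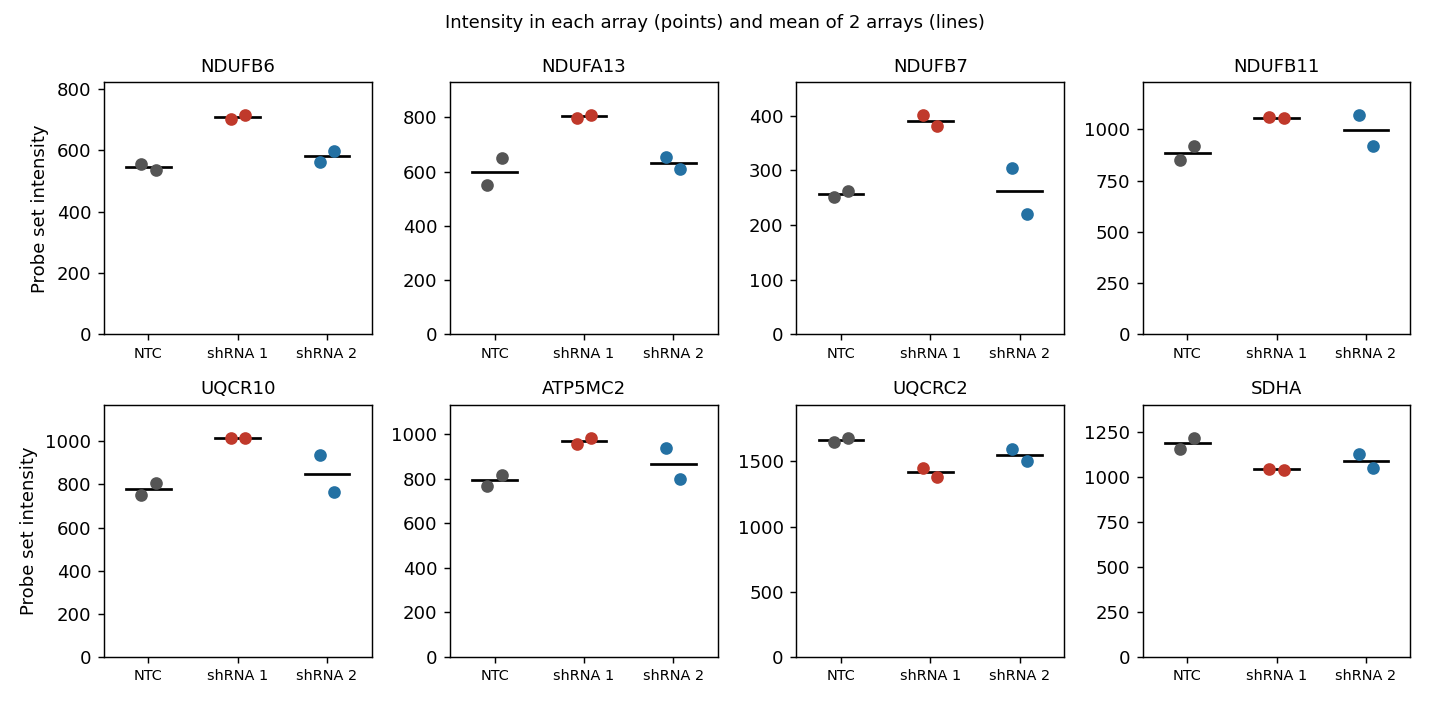
Probe set intensity (linear, from 0) of 8 subunits in each array (points) with the mean of the 2 arrays of a group (lines). NDUFB6, NDUFA13 and NDUFB7 are highest in both PRMT5 shRNA 1 arrays, and UQCRC2 and SDHA are below NTC in all 4 knockdown arrays.

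In complex IV, limma called 0 of the 10 kept subunits against NTC in any of the 3 contrasts. At an unadjusted p under 0.05 PRMT5 shRNA 1 had 3 such subunits, and PRMT5 shRNA 2 and the averaged contrast had 0. The averaged differences ran from −0.02 to 0.11. All 10 lay above 0 with PRMT5 shRNA 1 (median 0.11) and 3 of 10 with PRMT5 shRNA 2 (median −0.04). COX4I1, the common form of subunit 4, read 816 and 905 in NTC, 940.1 and 930.5 with PRMT5 shRNA 1, and 919 and 842 with PRMT5 shRNA 2, a difference of 0.08 ± 0.06 (adjusted p = 0.36). COX5A and COX5B, the subunits that flank the catalytic core, differed by 0.09 ± 0.05 and 0.07 ± 0.07. Without the _s_at and _x_at probe sets the value of COX5A was −0.24 (adjusted p = 0.029). COX6C differed by 0.03 ± 0.05, and COX6A1, COX6B1, COX7A2 and COX8A by −0.02 to 0.03.

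In complex V, the ATP synthase, 1 of 18 genes rose in the averaged contrast and 1 fell. ATP5MC2 is 1 of 3 genes that encode the same mature subunit c, the ring that turns with the proton flow. Its probe set (208764_s_at) read 768 and 819 in NTC, 955 and 985 with PRMT5 shRNA 1, and 937 and 800.1 with PRMT5 shRNA 2. It rose by 0.20 ± 0.07 (adjusted p = 0.038) and, with PRMT5 shRNA 1, by 0.29 ± 0.08 (adjusted p = 0.014). These calls were kept in 8 and 13 of 15 alternatives. The averaged call was lost when any array other than PRMT5 shRNA 2 replicate 2 was left out.

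The other subunit c genes were not called against NTC. ATP5MC3 differed by 0.04 ± 0.06 in the averaged contrast, and its other kept probe sets by 0.04 and −0.46. ATP5MC1 read 1059.5 and 1097 in NTC, 1219 and 1285 with PRMT5 shRNA 1, and 1055 and 862 with PRMT5 shRNA 2. ATP5MC1 was thus higher than NTC with 1 hairpin and lower with the other, by 0.21 ± 0.08 and −0.17 ± 0.08 (adjusted p = 0.067 and 0.17). The subunits of the catalytic head and central stalk did not pass the test: ATP5F1A, ATP5F1B and ATP5F1C differed by −0.03 ± 0.05, −0.07 ± 0.05 and 0.01 ± 0.05. ATP5PO, of the peripheral stalk, differed by 0.04 ± 0.05, and the inhibitor ATP5IF1 by −0.08 ± 0.06. ATP5MF, a small membrane subunit, had the largest fall, −0.32 ± 0.11 (adjusted p = 0.043), but on a dim probe set (1558179_at) that read 48.9 and 45.5 in NTC and 30.0 to 41.2 in the knockdown arrays. Its call was kept in 8 of 15 alternatives. That call was lost without either NTC array, PRMT5 shRNA 1 replicate 2 or PRMT5 shRNA 2 replicate 1.

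**Figure D3:**
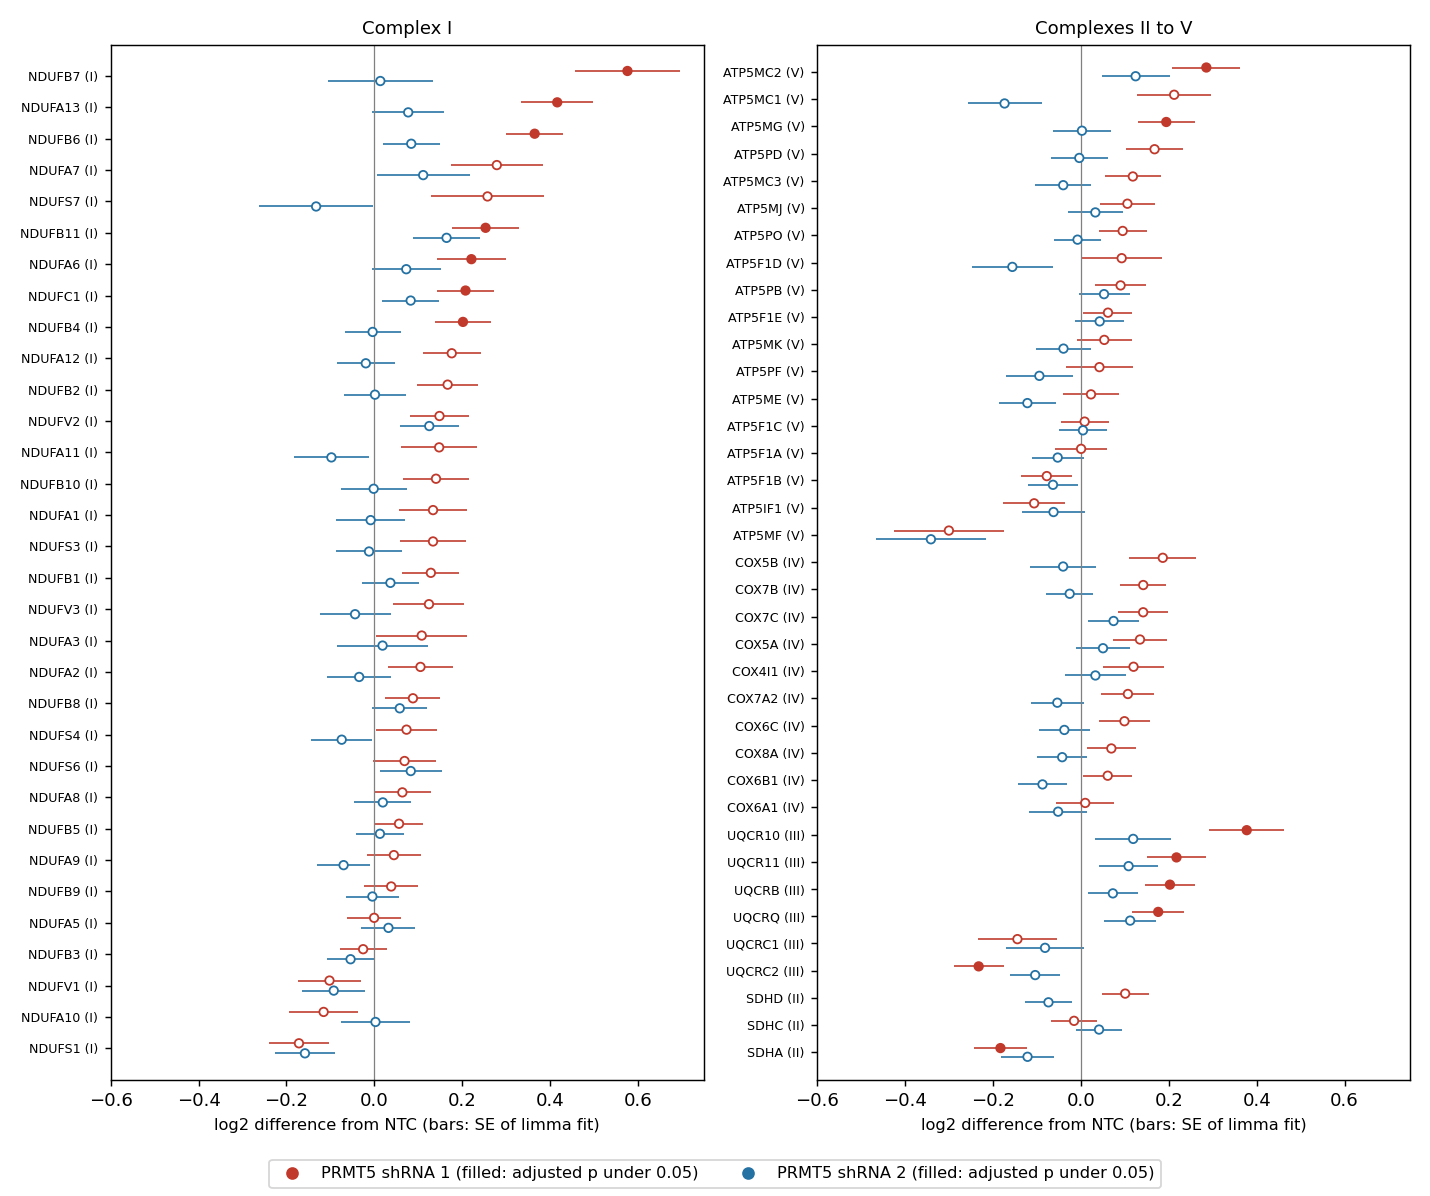
Log2 difference from NTC of each of the 69 subunits for PRMT5 shRNA 1 (red) and PRMT5 shRNA 2 (blue), with the SE of the limma fit as bars, filled where the adjusted p was under 0.05 and labelled with the complex in brackets. The 15 filled points all belong to PRMT5 shRNA 1, and NDUFB7, NDUFA13, UQCR10 and NDUFB6 lie farthest to the right.

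A list of 16 measured, long-studied subunits was also set against the other genes. It held NDUFS1, NDUFV1 and NDUFS7 of complex I, SDHA, SDHC and SDHD, UQCRC1 and UQCRC2, COX4I1, COX5A, COX5B and COX6C, and ATP5F1A, ATP5F1B, ATP5F1C and ATP5PO; some core subunits of complex I, among them NDUFS3 and NDUFV2, were not on it. With PRMT5 shRNA 1, 0 of the 16 rose and 2 fell (SDHA and UQCRC2; median 0.00), and of the other 53 genes 13 rose and 0 fell (median 0.12). In the averaged contrast 0 rose and 2 fell on the list (median 0.01), and 5 rose and 1 fell off it (median 0.06). With PRMT5 shRNA 2 the medians were −0.06 and 0.00. The difference between these groups was not tested.

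Between the hairpins, the 11 subunits lower with PRMT5 shRNA 2 were 6 of complex I (NDUFB7, NDUFS7, NDUFA13, NDUFB6, NDUFB4 and NDUFA12), SDHD, UQCR10, COX5B, COX7B and ATP5MC1. NDUFB7 differed by −0.56 ± 0.12 (adjusted p = 0.0078), ATP5MC1 by −0.39 ± 0.08 (adjusted p = 0.0087), NDUFA13 by −0.34 ± 0.08 (adjusted p = 0.013) and NDUFB6 by −0.28 ± 0.07 (adjusted p = 0.011). NDUFB7 kept its call in all 16 alternatives, ATP5MC1 in 14 of 15, NDUFB6 in 13 of 15 and NDUFA13 in 12 of 15. NDUFS7 read 105 and 142 in NTC, 152 and 147 with PRMT5 shRNA 1, and 121 and 100.5 with PRMT5 shRNA 2. Its difference between the hairpins, −0.39 ± 0.13, had an adjusted p of 0.047, and the NTC arrays covered most of the range of the knockdown arrays. The other 6 (UQCR10, COX5B, NDUFB4, NDUFA12, SDHD and COX7B) differed by −0.26 to −0.17 and kept their calls in 3 to 7 of 15 or 16 alternatives.

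Several probe sets often measured 1 gene, and they did not always point the same way. Of the 37 subunits with more than 1 kept probe set, all probe sets had the same sign in the averaged contrast for 12 and with PRMT5 shRNA 1 for 16. The brightest probe set ended in _s_at or _x_at for 42 of the 69 genes, so related transcripts and processed pseudogenes may share its signal. For NDUFB4 and UQCR11, which rose with PRMT5 shRNA 1, leaving those probe sets out turned the value to −0.23 and −0.18.

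Of 27 measured regulators of respiratory chain genes and of mitochondrial DNA expression, 12 fell and 1 rose in the averaged contrast, with a median of −0.12 against −0.01 over all genes. Over all genes 17% fell and 15.4% rose in that contrast. With PRMT5 shRNA 1, 11 regulators fell, where 23.1% of all genes did, and 1 rose. With PRMT5 shRNA 2, 8 fell, where 8.39% of all genes did, and 1 rose. That count of 8 was 3 without NTC replicate 1 and 4 without NTC replicate 2. It was 5 without either PRMT5 shRNA 1 array, without PRMT5 shRNA 2 replicate 1, without a filter on dim probe sets, without a variance trend or with the replicate block. In the averaged contrast the number that fell was 6 to 13 over the alternatives, 10 under centring and 13 under quantile normalisation, and it was 6 without NTC replicate 2 and 6 without the _s_at and _x_at probe sets.

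ESRRG, the estrogen-related receptor gamma, read 178 and 189 in NTC, 29.2 and 20.0 with PRMT5 shRNA 1, and 27.8 and 24.6 with PRMT5 shRNA 2, a difference of −2.27 ± 0.11 (adjusted p = 6.6e-08). PPARGC1B, the coactivator PGC-1β, read 265 and 289, then 189 and 152, then 135 and 135 (−0.81 ± 0.09, adjusted p = 5.9e-05). In both genes every knockdown array was below NTC. TWNK, the helicase of the mitochondrial DNA, fell by 0.47 ± 0.08 on the log2 scale (adjusted p = 0.0011). MTERF4, which acts in the assembly of the mitochondrial ribosome, was the one that rose, from 1012 and 762 in NTC to 1496 to 1810.1 in the knockdown arrays (0.91 ± 0.09, adjusted p = 2.3e-05). NRF1, GABPA and YY1, named here after their values were seen because their motifs were searched, differed by 0.01, −0.12 and −0.01, and none passed the test.

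The counts of the remaining lists stand beside the 15.4% of all genes that rose and the 17% that fell in the averaged contrast. Of 55 assembly factors, 5 rose and 9 fell. COA7, which serves complex IV assembly, fell from 447 and 426 in NTC to 241 to 334 in the knockdown arrays (−0.64 ± 0.08, adjusted p = 0.00014), NDUFAF7 and TMEM186 of complex I assembly by 0.31 and 0.30 on the log2 scale, and FMC1, COA6 and TMEM126A rose by 0.26, 0.24 and 0.21. Of 8 other subunits and dehydrogenases that feed the chain, GPD2, which passes electrons from glycerol-3-phosphate, fell by 0.37 ± 0.07 and ETFDH, which passes them from fatty acid oxidation, by 0.32 ± 0.08 (adjusted p = 0.0016 and 0.0089), and 0 rose.

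Of 23 genes of the citric acid cycle and pyruvate dehydrogenase, 3 rose and 4 fell. PDK1, the kinase that switches pyruvate dehydrogenase off, rose by 0.41 ± 0.06, and SUCLG2 and MPC2 by 0.33 and 0.25. DLAT, the acetyltransferase of that complex, fell by 0.30 ± 0.05, and MPC1 and PDHX by 0.34 and 0.20. PDK1 read 1047 and 1062.5 in NTC, 1214 and 1296 with PRMT5 shRNA 1, and 1483 and 1688 with PRMT5 shRNA 2, with no overlap between the groups. Its rise was 0.25 ± 0.07 with PRMT5 shRNA 1 and 0.58 ± 0.07 with PRMT5 shRNA 2 (adjusted p = 0.016 and 0.00015).

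Of 75 mitochondrial ribosomal proteins, 7 rose and 10 fell. MRPS9 fell by 0.43 ± 0.06 and MRPL41 rose by 0.38 ± 0.08. MRPL44 and MRPS34 fell by 0.29 and 0.27, and MRPL54 and MRPS21 rose by 0.28 and 0.26. Of 28 carriers and proteins of inner membrane organisation and import, 1 rose and 5 fell. OPA1, which fuses inner membranes, fell by 0.37 ± 0.09, TOMM40 and IMMT by 0.34 and 0.18, and MICOS10 of the cristae junctions rose by 0.26 ± 0.08. Under centring the fallen carriers numbered 1 in place of 5, and the ribosomal proteins had 10 higher and 9 lower calls.

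Of the genes named from these lists, ESRRG, PPARGC1B, TWNK, MTERF4, COA7, GPD2, DLAT, PDK1, SUCLG2 and MRPS9 kept their averaged call in every alternative run for them. OPA1 kept its call in 15 of 16, TOMM40 in 6 of 15, IMMT in 9 of 16 and MICOS10, whose value went down to 0.04, in 10 of 16. MRPL54 kept its call in 10 of 16, MRPS21 in 11 of 15 and FMC1 in 10 of 15. The counts of the lists moved with single arrays. Without NTC replicate 1, the assembly factors had 1 higher and 2 lower calls, the ribosomal proteins 1 and 6, the citric acid cycle list 2 and 2 and the carriers 1 and 0. Without NTC replicate 2 these were 3 and 3, 2 and 2, 3 and 2, and 0 and 1. Without PRMT5 shRNA 1 replicate 1 they were 3 and 7, 4 and 9, 3 and 4, and 1 and 1, and without its replicate 2 they were 2 and 8, 4 and 8, 3 and 3, and 0 and 2. Without PRMT5 shRNA 2 replicate 2 the ribosomal proteins had 16 higher and 10 lower calls.

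**Figure D4:**
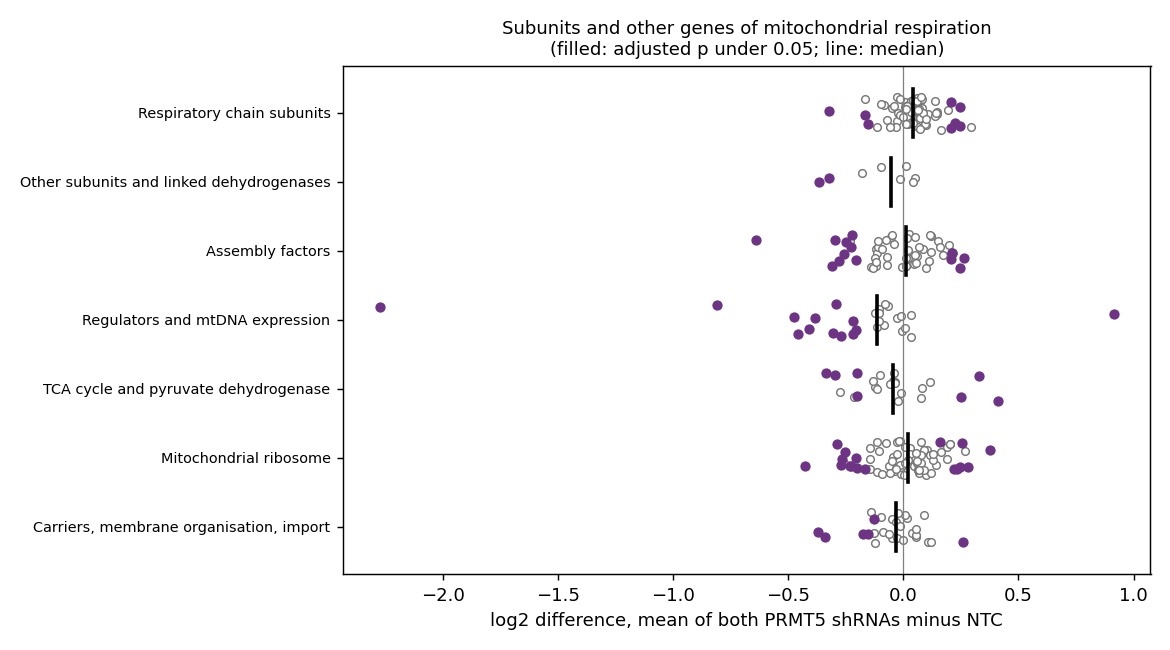
Log2 difference of the mean of both PRMT5 shRNAs from NTC for each measured gene, by list, filled where the adjusted p was under 0.05, with the list's median as a black line. The subunits lie between −0.32 and 0.30, while the regulators reach from −2.27 (ESRRG) to 0.91 (MTERF4) with a median of −0.12.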

How the data were processed

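The authors deposited linear probe set intensities. The submitters' processing notes name MAS5, with a version not given in the sources used here. The mean of every array, trimmed by 2% at either end, was about 150, and the values were used as deposited. Genes were named through the platform annotation (41091 probe sets with 1 symbol; 1801 with several and 11721 with none or not listed were not used, nor were 62 control probe sets). Each gene was represented by its brightest kept probe set. Values were transformed to log2(intensity + 16) and fitted over all 12413 genes with limma 3.58.1 in R 4.3.3 (lmFit, eBayes with an intensity trend, all 6 arrays, 1 coefficient per group, 3 residual degrees of freedom, no replicate block). Tests were two-sided with Benjamini-Hochberg adjustment over all genes. The script was tested on simulated data. The small number of arrays limits the precision.

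The subunits and lists were chosen with earlier results of these data known. Genes were named by rule: subunits called in the averaged contrast or between the hairpins, a list of long-studied subunits, the isoform pairs, and up to 3 genes per direction in each other list. A ranking of genes by likeness to the subunits across arrays, which had been planned, is not given because the arrays come from only 3 groups of 2. The alternatives were the pseudocount, the filter, quantile normalisation, centring, the choice of probe set, the variance trend, the replicate block and leaving out each array. The number of deposited value columns that matched no sample was 0.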

Additional observations from a re-analysis of the deposited data

Results flagged for a closer look

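The direct contrast between the hairpins found 11 subunits that differed, all lower with PRMT5 shRNA 2 than with PRMT5 shRNA 1 (limma, adjusted p under 0.05 over all genes, log2 scale). Over all genes 25.7% differed between the hairpins and 7.38% were lower with PRMT5 shRNA 2. The NTC arrays do not enter these differences but bear on the calls through the pooled spread. The count of subunits was 5 without either NTC array, 2 or 1 without PRMT5 shRNA 1 replicate 1 or 2, and 29 or 3 without PRMT5 shRNA 2 replicate 1 or 2. Without the _x_at and _s_at probe sets 4 were lower and 2 higher. In complex I these were NDUFB7 (−0.56), NDUFS7 (−0.39), NDUFA13 (−0.34), NDUFB6 (−0.28), NDUFB4 (−0.21) and NDUFA12 (−0.20). In complexes II, III and V they were SDHD (−0.17), UQCR10 (−0.26) and ATP5MC1 (−0.39), and in complex IV COX5B (−0.23) and COX7B (−0.17). The hairpins also left different shares of PRMT5, 15.9% and 36.2% of NTC, and the part of this in the differences was not tested. With 2 arrays per group no test for a single array that stands apart was made.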

How the results depend on the processing

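With the replicate number as a block, 8, 12, 0 and 6 subunits were called (both hairpins, PRMT5 shRNA 1, PRMT5 shRNA 2, and between the hairpins), against 8, 15, 0 and 11 without it. The labels do not say if samples with the same number were handled together. The replicate differences of the groups correlated at −0.09, −0.18 and −0.00, which cannot settle if the samples were paired. Leaving out 1 array gave 1 to 18, 4 to 26, 0 to 4 and 1 to 29 subunits, and 2180 to 4254 genes in the averaged contrast. In the averaged contrast 4 subunits were called without a filter, 4 without _x_at and _s_at probe sets (0 higher and 4 lower, with a median of 0.01 over 53 subunits) and 2 without a variance trend. For PRMT5 shRNA 1 the counts were 24 with centring, 9 without those probe sets (6 higher and 3 lower) and 6 without a trend. For PRMT5 shRNA 2 they were 1 without a filter (COX4I2), 3 with the mean over probe sets (ATP5F1E, NDUFA10 and NDUFB4) and 1 without the _x_at and _s_at probe sets (NDUFB4). Between the hairpins they were 4 without a filter, 30 with centring, 6 without those probe sets (4 lower and 2 higher) and 4 without a trend. The cause of these shifts was not tested.

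Some values that were small and not called in the averaged contrast changed sign, and a few then lay well away from 0. Quantile normalisation turned ATP5F1C (−0.0553), ATP5PO (−0.0135), COX6C (−0.0136), SDHC (−0.0021) and SDHD (−0.0111), and centring turned ATP5F1A (0.0013). The mean over probe sets turned ATP5F1C (−0.0273), ATP5PO (−0.0429), COX4I1 (−0.0238) and COX5A (−0.0717). Leaving out _x_at and _s_at probe sets turned ATP5F1C (−0.0612), COX4I1 (−0.16), COX5A (−0.24), NDUFS7 (−0.0085) and SDHC (−0.18). Leaving out an array gave ranges of −0.0661 to 0.0134 for ATP5F1A, −0.0188 to 0.0317 for ATP5F1C, −0.0026 to 0.0637 for COX6C and −0.13 to 0.26 for NDUFS7. With PRMT5 shRNA 1, genes that were called higher in the main fit turned as well. The mean over probe sets turned NDUFB4 (−0.0122) and UQCRB (−0.0212), and leaving out _x_at and _s_at probe sets turned NDUFB4 (−0.23) and UQCR11 (−0.18). Between the hairpins that last choice turned UQCR10 (0.0628). The cause was not tested. Isoforms under the filter on dim probe sets were tested only without it, where COX4I2 differed by −0.43 with PRMT5 shRNA 2 (adjusted p = 0.018).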
